A study of Mus musculus with 54 samples.

Results

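Distal CD29-HIGH mesenchyme was compared with distal PDGFRA-MED mesenchyme, both sorted from the distal part of the fetal mouse small intestine on embryonic day 16.5. The members were chosen by their sort and region labels, and they were 6 of the 54 RNA-seq samples of the series, 3 of CD29-HIGH cells and 3 of PDGFRA-MED cells. The 6 proximal and 6 mid libraries of the same sorts were used to ask which differences were distal. CD29-HIGH cells were PDGFRa-medium and CD29-high, and PDGFRA-MED cells were PDGFRa-medium and CD29-medium. Both gates took cells negative for EpCAM, DAPI, CD31 and CD45, that is, living cells without the epithelial, endothelial and blood surface markers. All fetuses were C57Bl/6J and untreated, and no group carried an engineered allele. The small intestine was divided into equal lengths, and cells came from its opening length (proximal), the central one (mid) and the final one (distal). A gate defines cells by surface protein and not by lineage, so each group may hold several cell types. The labels name neither the dams nor the number of fetuses behind a library, so p-values measure the spread between these libraries.

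The fetal gut wall is built by mesenchyme of several kinds. Muscle layers form in its outer part, fibroblasts fill the space between muscle and epithelium, and both release factors that instruct the epithelium. Bone morphogenetic proteins (BMPs) are secreted ligands of the TGF-beta family, and they are held in check outside the cell by antagonists such as noggin, gremlin and the chordins, which bind the ligand and keep it from its receptors. Follistatin does the same mainly for activins. In the intestine, antagonists from muscle and from mesenchyme beneath the crypts are known to keep BMP signalling low around epithelial progenitors, while Wnt ligands and R-spondins, which amplify Wnt signals, keep these progenitors dividing.

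Expression was read as RPKM, reads normalized to transcript length and to library size. The 6 distal libraries held 18621265 to 26378537 reads over genes, so that an RPKM of 1 in a transcript of 1 kb stood for 17.2 to 26.7 reads in the libraries of the table. Differences are given on the scale log2(RPKM + 0.5), CD29-HIGH minus PDGFRA-MED, with their standard error (SE). It is a scale on which low genes appear to change less than they did. A gene was called when limma's treat test put its difference beyond 0.5 on that scale at an adjusted p under 0.05. Of the 15894 genes in the table, 13334 reached an RPKM of 1 in at least 3 libraries and were tested. One distal library stood apart from its group before any comparison. Distal PDGFRA-MED replicate 1 held a summed 255 RPKM over 18 genes of enteric neurons and glia, against 90.8 and 117 RPKM in the other distal PDGFRA-MED libraries. The sum ran from 67.9 to 180 RPKM in proximal and from 71.8 to 195 RPKM in mid PDGFRA-MED libraries. Results that rest on it are given with and without it.

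In the distal intestine 1499 genes were higher in CD29-HIGH cells, 11.2% of those tested, and 1224 were lower, 9.18%. Every one of the 2723 called genes had the same sign in all 3 same-numbered pairs of libraries. The calls came from these same libraries, so this agreement follows largely from the selection and is no separate evidence. The log2 difference passed 4 for 74 of the genes that were higher and for 14 of those that were lower. Without PDGFRA-MED replicate 1, 1470 genes were higher and 1154 lower. The split between the directions depended on the scaling. Of the calls, 55.05% were higher in CD29-HIGH cells with the deposited scaling, 50.81% after quantile normalization and 34.09% when each library was scaled to its total reads, where 1008 genes were higher and 1949 lower. The last scaling moved the median difference of all genes by -0.25, to -0.21, against 0.05 with the deposited scaling. In sorted populations measured in bulk, a lower value can mean fewer cells of a type or less RNA per cell, and these cannot be told apart here.

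The genes behind the gate were read first. Itgb1, which encodes CD29, the beta1 chain of integrins that bind laminins and collagens, had 374, 368 and 448 RPKM in CD29-HIGH cells, against 148, 174 and 189 RPKM in PDGFRA-MED cells. The groups did not overlap, and the difference was 1.22 ± 0.08 (adjusted p = 2.67e-06). Pdgfra, which encodes the receptor that set the other axis of the gate, had 7.83, 3.38 and 8.98 RPKM in CD29-HIGH cells, against 74.2, 104 and 96.5 RPKM in PDGFRA-MED cells. Its difference was -3.75 ± 0.47 (adjusted p = 0.000138), although the labels place both sorts at medium PDGFRa protein.

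The 4 genes given as markers of the comparison each separated the groups. They came with the comparison, so their separation describes it and is not a test of it. Actg2, the gamma actin of enteric smooth muscle (gene ID 11468, chromosome 6, 83512909 to 83536251 in GRCm38.p6), had 5320, 6132 and 6902 RPKM in CD29-HIGH cells, against 29.2, 26.9 and 40.3 RPKM in PDGFRA-MED cells. It was the largest difference of all called genes, 7.57 ± 0.26 (adjusted p = 1.66e-10), a ratio of means of 190.4. Grem1 and Fst, both antagonists, were also higher in CD29-HIGH cells and are described with their group. Col14a1, a fibril-associated collagen of fibroblasts (gene ID 12818, chromosome 15, 55307644 to 55520803), had 10.1, 5.70 and 5.70 RPKM in CD29-HIGH cells, against 325, 425 and 453 RPKM in PDGFRA-MED cells. It was lower by -5.75 ± 0.29 (adjusted p = 2.29e-08), and the mean of PDGFRA-MED cells was 56.1 times that of CD29-HIGH cells.

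All 26 listed contractile and cytoskeletal genes of smooth muscle were tested, and all 26 were higher in distal CD29-HIGH cells, with a median difference of 3.83 against 0.05 over all genes tested. This count was 26 of 26 with every scaling tried. Cnn1, the actin-binding calponin of smooth muscle, had 608, 748 and 753 RPKM in CD29-HIGH cells, against 4.15, 3.34 and 5.52 RPKM in PDGFRA-MED cells, a difference of 7.20 ± 0.35. Myh11, the smooth muscle myosin heavy chain, had 2945, 3680 and 3315 RPKM in CD29-HIGH cells, against 46.5, 38.4 and 46.9 RPKM in PDGFRA-MED cells, a difference of 6.22 ± 0.18. In both genes the lowest CD29-HIGH library lay far above the highest PDGFRA-MED library. Reads of the near-identical actin transcripts (Actg2, Acta2, Acta1) can be assigned to the wrong member, so their separate levels are uncertain.

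Other genes were among the 10 largest differences. Pcp4, a small calmodulin regulator best known from Purkinje neurons, had 71.1, 69.1 and 115 RPKM in CD29-HIGH cells, against 0.0736, 0.0651 and 0.294 RPKM in PDGFRA-MED cells, a difference of 7.03 ± 0.17. Tnnt2, the cardiac form of troponin T, differed by 6.49 ± 0.20, and Myom1, which crosslinks myosin in the sarcomere, by 6.33 ± 0.11. Casq1, a calcium store protein of the sarcoplasmic reticulum, differed by 6.20 ± 0.17, and Sh3bgr, a small protein of heart and muscle, by 6.31 ± 0.28. Pdlim3, an adaptor of the muscle Z-disc, differed by 6.11 ± 0.11. Of 6 tested skeletal muscle markers 2 were higher in CD29-HIGH cells, Ckm (3.75 ± 0.16) and Acta1 (1.10 ± 0.12), and 0 lower. Limma-voom on recovered reads called 4 higher and 0 lower. Myod1, Myf5, Myog and Pax7, which define that lineage, were not among the genes of the table, and the other 7 markers listed summed to 18.7 to 22.2 RPKM in CD29-HIGH cells and 4.86 to 9.20 RPKM in PDGFRA-MED cells.

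Promoters of this group are shown because all of its members were called and the factor that drives many of them, serum response factor, is known to bind a sequence named the CArG box, a run of A and T between CC and GG. The box was searched in windows of 300 bases, from 250 before to 50 after the start sites that RefSeq annotates in GRCm38.p6. Of the 26 genes, 22 had a window, and 4 of these, 18.2%, held a box, against 1.81% of all 27025 genes with a window and 1.74% of the 9949 tested genes with one. A box reads as a box on either strand, so both strands were covered. The 4 genes were Myl9 and Myl6, light chains of myosin, Vcl, which links actin to adhesion sites, and Ldb3, a Z-disc adaptor. Their windows are printed 5′ to 3′ on the strand of the gene, with the box in capitals. That of Myl9 is chr2:156775214-156775513 on the plus strand with the first base of the box at -161 from the start site, that of Myl6 is chr10:128492960-128493259 on the minus strand at -50, that of Vcl is chr14:20929148-20929447 on the plus strand at -227, and that of Ldb3 is chr14:34588558-34588857 on the minus strand at -109. Ldb3 has another annotated start site, whose window, chr14:34588632-34588931, held the same box at -35 and is not printed.
Myl9: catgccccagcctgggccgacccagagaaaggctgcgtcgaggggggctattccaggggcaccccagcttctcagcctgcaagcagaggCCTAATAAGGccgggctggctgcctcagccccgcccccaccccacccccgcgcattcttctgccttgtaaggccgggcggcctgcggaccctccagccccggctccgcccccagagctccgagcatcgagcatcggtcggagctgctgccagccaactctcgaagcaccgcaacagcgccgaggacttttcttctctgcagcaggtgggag
Myl6: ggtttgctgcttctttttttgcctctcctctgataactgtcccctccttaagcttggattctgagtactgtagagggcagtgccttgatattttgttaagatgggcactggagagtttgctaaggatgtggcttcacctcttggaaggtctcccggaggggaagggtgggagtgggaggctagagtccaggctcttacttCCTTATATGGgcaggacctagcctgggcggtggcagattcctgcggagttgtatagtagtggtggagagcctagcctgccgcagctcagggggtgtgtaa
Vcl: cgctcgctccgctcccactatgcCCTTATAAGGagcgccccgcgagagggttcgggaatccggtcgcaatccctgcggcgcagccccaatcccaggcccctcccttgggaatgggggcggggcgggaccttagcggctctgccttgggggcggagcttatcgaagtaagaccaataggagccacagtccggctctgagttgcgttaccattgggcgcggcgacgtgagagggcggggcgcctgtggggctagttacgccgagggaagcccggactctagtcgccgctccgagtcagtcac
Ldb3: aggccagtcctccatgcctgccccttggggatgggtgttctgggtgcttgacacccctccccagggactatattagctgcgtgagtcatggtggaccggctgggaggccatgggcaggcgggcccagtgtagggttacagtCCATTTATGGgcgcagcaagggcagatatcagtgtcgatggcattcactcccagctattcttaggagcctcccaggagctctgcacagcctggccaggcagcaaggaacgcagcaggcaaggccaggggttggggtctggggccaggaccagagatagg
The matches describe the letters of these windows and say nothing of binding in these cells, and some members, such as Actg2, Tagln and Myh11, had no window in the table. Myl9 had 1392, 1620 and 1686 RPKM in CD29-HIGH cells, against 51.4, 56.4 and 56.4 RPKM in PDGFRA-MED cells, a difference of 4.82 ± 0.07. Myl6, which nonmuscle cells use too, differed by 3.10 ± 0.08, Vcl by 3.24 ± 0.06 and Ldb3 by 2.96 ± 0.12.

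Of 21 tested regulators of smooth muscle, 9 were higher in CD29-HIGH cells and 4 lower. Over all tested genes 11.2% were higher and 9.18% lower, the shares to set beside this and the later distal list counts. Myocd, myocardin, the coactivator of serum response factor that switches on contractile genes, had 111, 120 and 113 RPKM in CD29-HIGH cells, against 5.95, 3.91 and 3.80 RPKM in PDGFRA-MED cells, a difference of 4.53 ± 0.22 (adjusted p = 1.34e-08). Foxp1, a forkhead repressor, differed by 2.30 ± 0.07, and Mef2c, a muscle transcription factor, by 1.42 ± 0.16. The lower genes included Tbx18, a T-box factor of mural and mesothelial cells, at -2.22 ± 0.16, Gata6, a factor of gut endoderm and mesoderm, at -2.04 ± 0.29, and Nkx2-3, a homeobox factor of gut mesenchyme, at -1.31 ± 0.14.

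Of 23 tested receptors and channels of contraction, 12 were higher and 1 lower. Chrm2, the muscarinic receptor through which enteric nerves reach gut muscle, had 101, 110 and 114 RPKM in CD29-HIGH cells, against 4.63, 2.97 and 2.94 RPKM in PDGFRA-MED cells, a difference of 4.78 ± 0.11. Kcnma1, the large calcium-activated potassium channel, differed by 4.83 ± 0.13 and Tacr2, a tachykinin receptor, by 4.04 ± 0.10. Ednra, an endothelin receptor, was the lower gene, at -1.17 ± 0.13, and 3 genes of the list were lower with scaling to total reads.

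Secreted antagonists of BMPs and activins were, as a group, on the CD29-HIGH side. Of 16 listed genes 14 were tested, and 10 were higher in distal CD29-HIGH cells and 0 lower, with a median difference of 1.88. The background was 11.2% of tested genes higher. No antagonist was lower at an unadjusted p under 0.05 or by limma-voom on recovered reads, and 1, Twsg1, was lower with scaling to total reads, at -0.80. The plot of the antagonists by library shows the values.

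**Figure D1:**
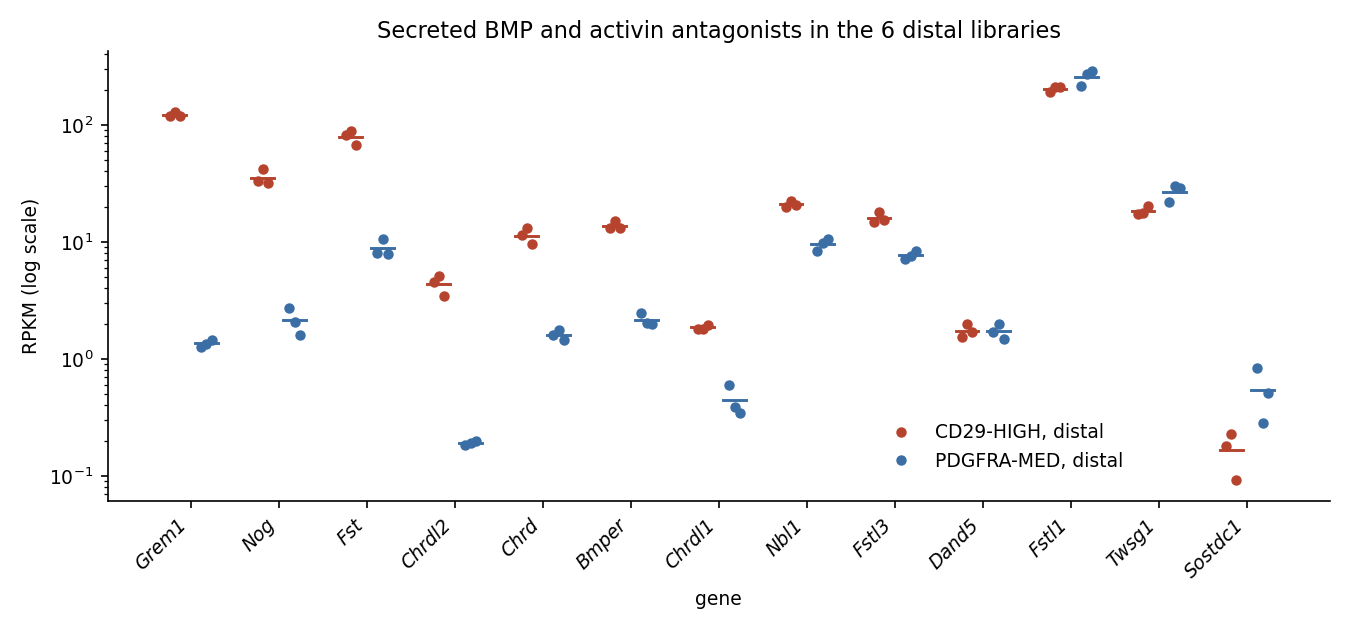
RPKM (log axis) of 13 of the 14 tested secreted BMP and activin antagonists in the 6 distal libraries, CD29-HIGH on the left of each pair and PDGFRA-MED on the right, with a bar at the mean of 3 libraries. Of the genes plotted 9 were called higher in CD29-HIGH cells, beside 11.2% of all tested genes. The ratio of means was 90.0 for Grem1 and 16.7 for Nog.

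The widest gap among the antagonists described here was that of Grem1. Grem1, gremlin, which binds BMP ligands such as BMP2 and BMP4 (gene ID 23892, chromosome 2, 113748675 to 113758648), had 119, 128 and 119 RPKM in CD29-HIGH cells, against 1.26, 1.34 and 1.46 RPKM in PDGFRA-MED cells. The ratio of means was 90.0 and the difference 6.05 ± 0.15 (adjusted p = 8.78e-13). The 3 libraries of each group lay close together. Nog, noggin (gene ID 18121, chromosome 11), had 33.1, 41.8 and 31.6 RPKM in CD29-HIGH cells, against 2.73, 2.05 and 1.60 RPKM in PDGFRA-MED cells, a difference of 3.79 ± 0.12.

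Follistatin and the chordins came next. Fst, follistatin, which binds activins and some BMPs (gene ID 14313, chromosome 13, 114452262 to 114458989), had 81.7, 88.3 and 66.8 RPKM in CD29-HIGH cells, against 8.04, 10.7 and 7.89 RPKM in PDGFRA-MED cells. Both sorts thus held Fst transcripts distally, and the ratio of means was 8.90, with a difference of 3.09 ± 0.33 (adjusted p = 3.16e-05). Chrdl2, chordin-like 2 (gene ID 69121, chromosome 7), had 4.54, 5.13 and 3.47 RPKM in CD29-HIGH cells, against 0.185, 0.191 and 0.197 RPKM in PDGFRA-MED cells, a difference of 2.81 ± 0.15. Chrd, chordin (gene ID 12667, chromosome 16), had 11.3, 13.1 and 9.49 RPKM in CD29-HIGH cells, against 1.60, 1.76 and 1.44 RPKM in PDGFRA-MED cells, a difference of 2.48 ± 0.13. Each of these genes kept the groups apart.

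Smaller differences completed the set. Bmper, a chordin-family protein that can hinder or help BMP signals, differed by 2.43 ± 0.16, Chrdl1, chordin-like 1, by 1.33 ± 0.16, Nbl1, a relative of gremlin, by 1.09 ± 0.12 and Fstl3, a follistatin-like binder of activins, by 1.01 ± 0.07. The others were not called. Fstl1, a matrix glycoprotein of the follistatin family, had the highest level of the list on the RPKM scale and differed by -0.33 ± 0.08, Twsg1, a chordin partner, by -0.53 ± 0.08, Sostdc1 by -0.62 ± 0.22 and Dand5 by 0.01 ± 0.13.

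Whether these differences were distal was tested as the distal difference minus the mean of the proximal and mid differences, which come from other libraries. Over all genes 13 of these regional differences were higher, 0.0975% of those tested, and 26 were lower, 0.195%. The counts were lower when all 6 libraries of 1 replicate number were left out. By limma they were 0 and 0 without number 1 (72 higher and 127 lower at an unadjusted p under 0.05), 1 higher and 9 lower without number 2, and 6 higher and 15 lower without number 3. Without PDGFRA-MED distal replicate 1 they were 7 higher and 19 lower. Limma-voom on recovered reads from all libraries called 10 higher and 21 lower. Of the genes called by limma with all libraries, 39 were also called against the proximal difference alone and 5 against the mid difference alone. Among the antagonists 2 were called against the mean, both higher, and the plot of their differences by region shows the rest. Chrd had a difference between the sorts of 0.59 in the proximal, 1.34 in the mid and 2.48 in the distal region, and the distal one exceeded the mean of the others by 1.52 ± 0.16 (adjusted p = 0.00708). Chrdl2 had 1.05, 1.71 and 2.81 in the same order, and exceeded it by 1.42 ± 0.18 (adjusted p = 0.0377). The Chrd call held when any single library was left out, with an adjusted p of at most 0.0484, and was lost when all 6 libraries of replicate number 1 (adjusted p = 0.22) or 2 (adjusted p = 0.20) were. The Chrdl2 call held in 4 of those 18 single-library fits, with an adjusted p of up to 0.183. Against the proximal difference alone both genes were called, Chrd at 1.89 ± 0.19 and Chrdl2 at 1.76 ± 0.21. Against the mid difference alone neither was called by limma's treat test, Chrd at 1.145 ± 0.19 (adjusted p = 0.908) and Chrdl2 at 1.09 ± 0.21.

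**Figure D2:**
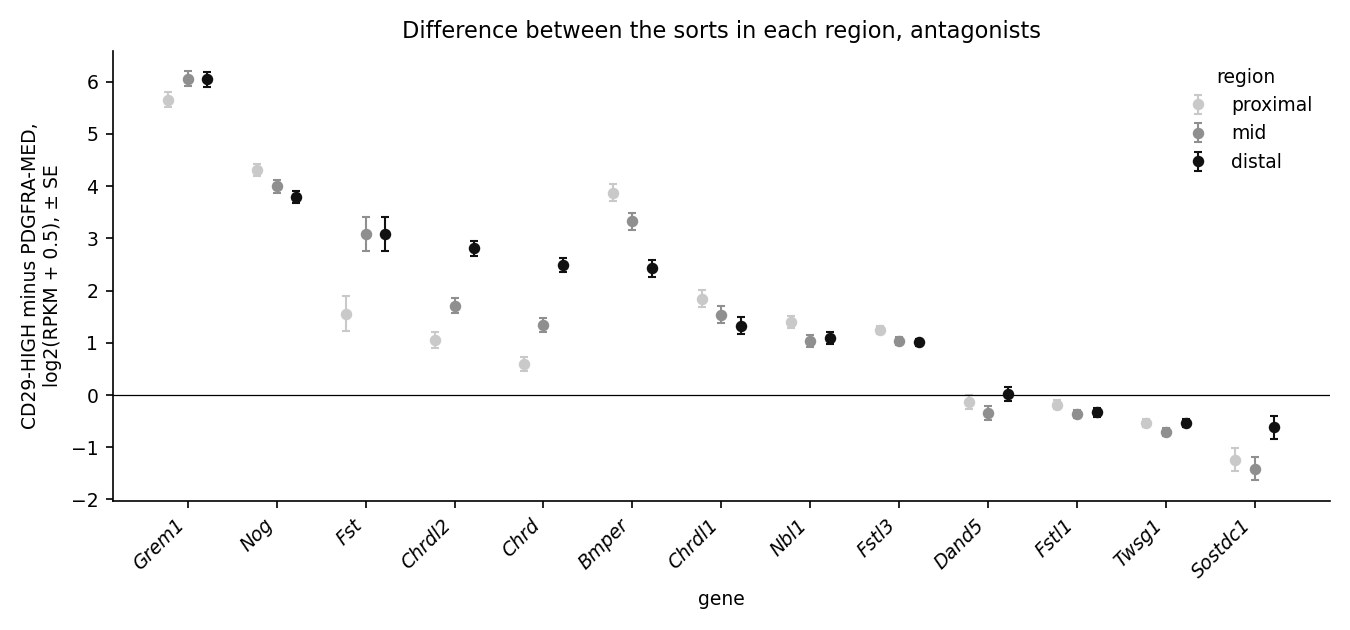
Difference between the sorts, CD29-HIGH minus PDGFRA-MED on log2(RPKM + 0.5), with its SE, for 13 of the 14 tested antagonists in the proximal, mid and distal region. Chrd and Chrdl2 climb from proximal to distal (0.59, 1.34 and 2.48 for Chrd), while Grem1 stands near 6 in all regions and Bmper is lowest distally at 2.43.

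The levels of each sort show where these differences lay. In CD29-HIGH cells Chrd averaged 3.21 RPKM in the proximal, 5.57 in the mid and 11.3 in the distal region, while PDGFRA-MED cells stayed between 1.60 and 1.95. Chrdl2 averaged 0.934, 1.53 and 4.38 RPKM in CD29-HIGH cells from proximal to distal, and 0.119 to 0.191 RPKM in PDGFRA-MED cells. Within CD29-HIGH cells the distal level was called higher than the mean of proximal and mid for both, by 1.32 ± 0.11 for Chrd (adjusted p = 0.000544) and by 1.51 ± 0.13 for Chrdl2 (adjusted p = 0.000268).

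Fst was regional in both sorts. It averaged 2.08, 18 and 79.0 RPKM from proximal to distal in CD29-HIGH cells, and 0.333, 1.67 and 8.87 RPKM in PDGFRA-MED cells. The distal level was higher than the mean of proximal and mid by 3.59 ± 0.28 in CD29-HIGH cells (adjusted p = 5.37e-05) and by 2.83 ± 0.28 in PDGFRA-MED cells (adjusted p = 0.0014). The difference between the sorts was 1.56 proximally, 3.09 in the mid region and 3.09 distally, and its regional part of 0.76 ± 0.40 was not called (adjusted p = 1). The proximal PDGFRA-MED mean of 0.333 RPKM lay under the constant added before the log. The proximal difference is therefore understated on this scale, and the rise from it cannot be taken as a wider gap. Inhba, the activin A subunit that follistatin binds, went the other way along the gut, with 12.1, 3.42 and 1.01 RPKM in CD29-HIGH cells and 4.40, 1.90 and 0.448 RPKM in PDGFRA-MED cells. Its distal level was lower by -2.22 ± 0.17 in CD29-HIGH cells (adjusted p = 1.47e-05) and by -1.85 ± 0.17 in PDGFRA-MED cells (adjusted p = 0.000436).

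Chrdl1 ran opposite to its relative Chrdl2. It averaged 12.6, 4.34 and 1.86 RPKM from proximal to distal in CD29-HIGH cells, and 3.13, 1.18 and 0.444 RPKM in PDGFRA-MED cells. Its distal level was lower in both sorts, by -1.75 ± 0.14 in CD29-HIGH cells and by -1.38 ± 0.14 in PDGFRA-MED cells. Grem1 averaged 224, 144 and 122 RPKM in CD29-HIGH cells from proximal to distal and 4.01, 1.72 and 1.35 RPKM in PDGFRA-MED cells, so that its ratio between the sorts stayed wide, and neither its regional difference of 0.19 ± 0.18 nor that of Bmper, -1.17 ± 0.20 (adjusted p = 0.386), was called.

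**Figure D3:**
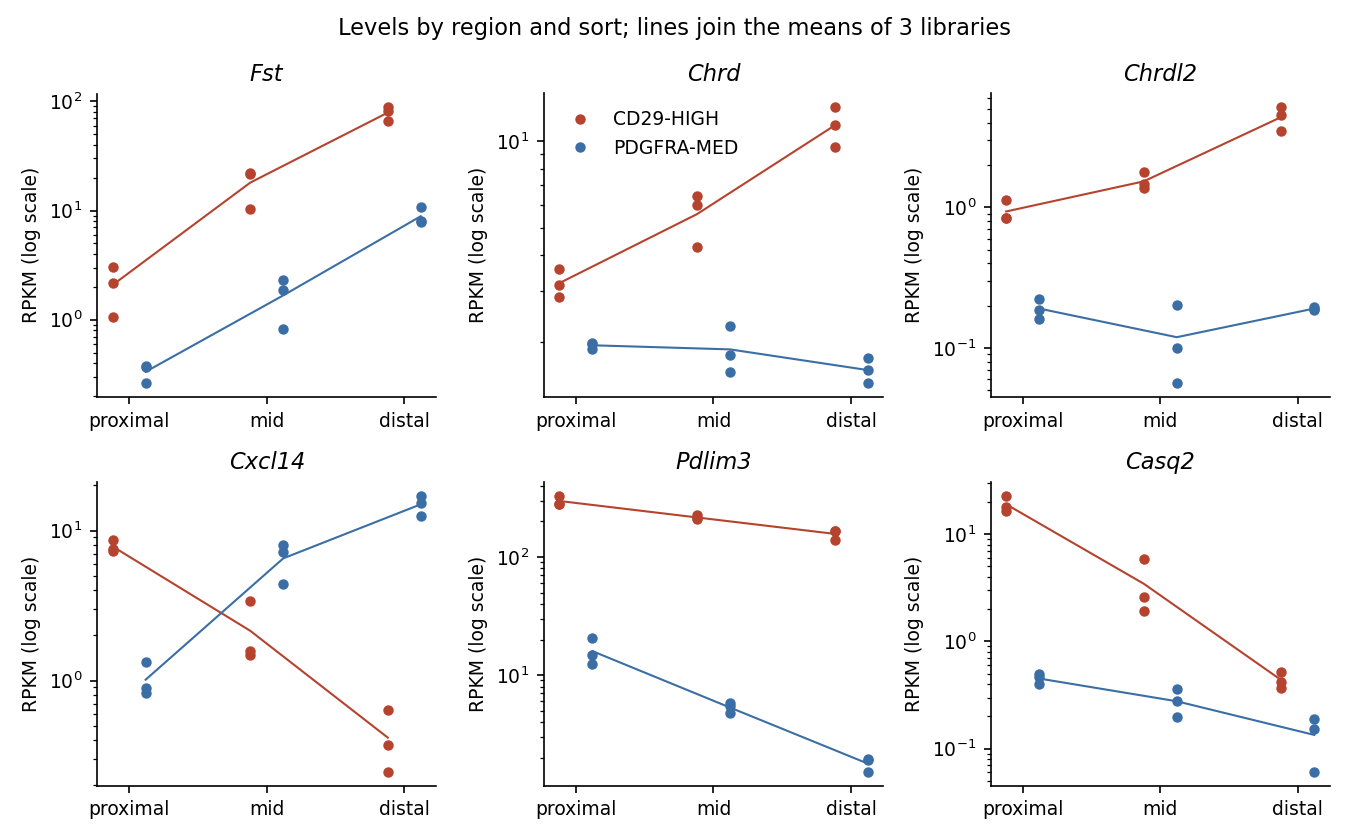
RPKM (log axis) of Fst, Chrd, Chrdl2, Cxcl14, Pdlim3 and Casq2 in the proximal, mid and distal region, CD29-HIGH drawn left of PDGFRA-MED, with a point for each of the 3 libraries and lines through the means. Fst climbs in both sorts (79.0 RPKM distally in CD29-HIGH and 8.87 in PDGFRA-MED), Chrd and Chrdl2 in CD29-HIGH, and Cxcl14 crosses over, with 0.417 RPKM distally in CD29-HIGH and 14.9 in PDGFRA-MED.

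Of 14 tested BMP, activin and TGF-beta ligands, the factors that such antagonists bind, 6 were lower in distal CD29-HIGH cells, 1 was higher and 7 were not called, with a median difference of -0.84. Bmp4, the main BMP of gut mesenchyme, had 6.97, 2.41 and 6.99 RPKM in CD29-HIGH cells, against 90.7, 98.0 and 89.4 RPKM in PDGFRA-MED cells, a difference of -4.09 ± 0.39 (adjusted p = 1.21e-05). CD29-HIGH replicate 2 was the lowest library for Bmp4 and also for Bmp7 and Pdgfra. Gdf6, a BMP-like growth factor, had 0.281, 0.113 and 0.158 RPKM in CD29-HIGH cells, against 7.31, 9.45 and 8.60 RPKM in PDGFRA-MED cells, a difference of -3.71 ± 0.22. Bmp7 differed by -2.59 ± 0.23 and Bmp2, a ligand of subepithelial mesenchyme, by -1.26 ± 0.27 (adjusted p = 0.0388). Inha, the inhibin subunit that opposes activin, was the higher gene, by 0.90 ± 0.15, and it was no longer called with scaling to total reads.

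Of 19 tested genes that receive or record the BMP signal, 7 were higher in CD29-HIGH cells and 1 lower. Id4, a target that blocks differentiation factors, had 120, 145 and 105 RPKM in CD29-HIGH cells, against 16.8, 11.0 and 11.1 RPKM in PDGFRA-MED cells, a difference of 3.21 ± 0.13. Id2, of the same family, differed by 2.33 ± 0.16 and Smad9, a transducer of the pathway, by 2.22 ± 0.07. Acvrl1, a receptor best known from vessels, was lower by -2.16 ± 0.16. By limma's treat test 0 of the 19 had a called regional difference. Over all tested genes 0.0975% were called higher and 0.195% lower in that test, so a count of 0 says little of this list.

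Secreted antagonists of Wnt leaned lower in distal CD29-HIGH cells, with a median difference of -0.81. Of 7 tested, 3 were lower and 1 higher. At an unadjusted p under 0.05, by limma-voom and with scaling to total reads, 5 were lower and 1 higher. Sfrp1, a decoy that binds Wnt ligands, had 21.3, 20.3 and 27.4 RPKM in CD29-HIGH cells, against 65.0, 88.3 and 86.9 RPKM in PDGFRA-MED cells, a difference of -1.78 ± 0.14 (adjusted p = 2.25e-06). It was also lower distally within CD29-HIGH cells, with 95.1, 52.8 and 23.0 RPKM from proximal to distal (-1.61 ± 0.12, adjusted p = 6.11e-05). Frzb, another decoy, was lower by -1.13 ± 0.16 at under 0.2 RPKM in each CD29-HIGH library, and Dkk3, a Dickkopf relative, by -0.79 ± 0.09. Dkk2, which blocks the Wnt coreceptor, was higher, with 13.3, 16 and 14.8 RPKM in CD29-HIGH cells, against 5.93, 5.76 and 4.17 RPKM in PDGFRA-MED cells, a difference of 1.4 ± 0.11 (adjusted p = 3.95e-06). Sfrp2 (-0.94 ± 0.27), Dkk1 (-0.81 ± 0.16) and Igfbp4 (-0.71 ± 0.09) were not called.

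The R-spondins divided. Rspo3 had 57.1, 60.0 and 58.8 RPKM in CD29-HIGH cells, against 8.12, 9.36 and 7.24 RPKM in PDGFRA-MED cells, a difference of 2.77 ± 0.11 (adjusted p = 2.6e-10). Rspo1, which mesothelium also makes, was higher by 2.22 ± 0.28, and Rspo2 was lower by -2.25 ± 0.18 at 0.0478 to 0.135 RPKM in CD29-HIGH cells, against 1.85 to 2.74 RPKM in PDGFRA-MED cells. None of them had a called regional difference, which says little for so few genes when 0.0975% of all tested genes were higher and 0.195% lower.

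All 5 tested Wnt ligands were called. Wnt5a, a ligand that mostly acts without beta-catenin and that lengthens the gut tube, had 44.6, 47.1 and 44.3 RPKM in CD29-HIGH cells, against 21.1, 29.8 and 22.1 RPKM in PDGFRA-MED cells, a difference of 0.90 ± 0.07 that was not called with scaling to total reads (adjusted p = 0.23). Its distal level was higher than that of the other regions in both sorts, by 1.26 ± 0.06 in CD29-HIGH cells and by 1.05 ± 0.06 in PDGFRA-MED cells. Wnt9a was higher by 1.46 ± 0.13, while Wnt2b (-3.53 ± 0.18), Wnt5b (-2.11 ± 0.14) and Wnt4 (-1.47 ± 0.20) were lower. Of 29 receptors, feedback genes and targets, 12 were higher and 1 lower. Nkd1, a feedback inhibitor, differed by 2.85 ± 0.06, Tnfrsf19, a target and surface receptor, by 2.48 ± 0.15 and Fzd5, a Wnt receptor, by 2.13 ± 0.17, and Ephb2, a guidance receptor, by -1.91 ± 0.12. Axin2, the usual readout of beta-catenin, differed by 0.26 ± 0.10 and was not called.

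Hedgehog ligands from the epithelium act on the mesenchyme, where Gli factors carry the signal to the nucleus. Of 15 tested genes 5 were higher in distal CD29-HIGH cells and 1 lower. Hhip, which traps the ligand, had 39.0, 38.0 and 39.8 RPKM in CD29-HIGH cells, against 3.59, 6.83 and 6.16 RPKM in PDGFRA-MED cells, a difference of 2.75 ± 0.18. The coreceptors Cdon and Gas1 each differed by 1.98, with an SE of 0.19 and 0.11. Foxl1, a target in subepithelial cells, was lower by -1.95 ± 0.31. Gli1, the effector and target of the pathway, averaged 20.9, 29.0 and 52.1 RPKM from proximal to distal in CD29-HIGH cells and 28.3, 35.5 and 35.3 RPKM in PDGFRA-MED cells. Its distal level was higher within CD29-HIGH cells by 1.07 ± 0.09 (adjusted p = 0.00168), and its regional difference of 0.91 ± 0.13 was not called (adjusted p = 0.434).

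The regional differences beyond the antagonists were led by a chemokine. Cxcl14 (gene ID 57266, chromosome 13, 56288643 to 56296811) had 0.370, 0.246 and 0.633 RPKM in distal CD29-HIGH cells, against 12.5, 15.3 and 17 RPKM in distal PDGFRA-MED cells. In the proximal region it averaged 7.83 RPKM in CD29-HIGH cells and 1.01 RPKM in PDGFRA-MED cells, and in the mid region 2.15 and 6.52 RPKM. The difference between the sorts was thus 2.47 ± 0.24 proximally, -1.44 ± 0.24 in the mid region and -4.09 ± 0.24 distally, each of them called. The distal one was lower than the mean of the others by -4.60 ± 0.30 (adjusted p = 2.36e-05), which was called in all 18 fits that left out 1 library and missed the threshold without the 6 libraries of replicate number 1 (adjusted p = 0.059). Cxcl14 was the single gene called in both sorts along the gut in opposite directions, at -2.34 ± 0.21 in CD29-HIGH cells and 2.26 ± 0.21 in PDGFRA-MED cells.

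Of the muscle gene lists, 1 of 26 contractile genes, 1 of 23 receptors and channels and 2 of 6 skeletal muscle markers had a lower regional difference, and 1 contractile gene, Pdlim3, a higher one. Over all tested genes 0.195% were lower and 0.0975% higher in that test. Ckm, muscle creatine kinase, had 5.20, 4.88 and 10.4 RPKM in distal CD29-HIGH cells and averaged 81.0 RPKM in the proximal and 34.7 RPKM in the mid region of that sort. Casq2, the cardiac calsequestrin, averaged 19.0, 3.45 and 0.435 RPKM from proximal to distal in CD29-HIGH cells, and Myh7, the slow myosin heavy chain, 92.1, 84.7 and 17.2 RPKM. In PDGFRA-MED cells Ckm, Casq2 and Myh7 averaged at most 0.451 RPKM in every region. Within CD29-HIGH cells the distal level was lower by -2.93 ± 0.14 for Ckm (adjusted p = 1.3e-07), by -3.16 ± 0.19 for Casq2 (adjusted p = 1.33e-06) and by -2.33 ± 0.14 for Myh7 (adjusted p = 2.44e-06). Their regional differences between the sorts, -2.67 ± 0.20 for Ckm, -2.72 ± 0.27 for Casq2 and -2.12 ± 0.19 for Myh7, were called on the log2(RPKM + 0.5) scale. Means in PDGFRA-MED cells rested on few reads and lay under the 0.5 added before the log. For Ckm they were 0.218, 0.0562 and 0.0176 RPKM from proximal to distal. By limma-voom on recovered reads, where 0.5 RPKM was not added, the regional differences were -0.88, -2.58 and -1.01 and were not called. Des, the intermediate filament desmin, averaged 1590, 1316 and 668 RPKM in CD29-HIGH cells and 28.4 to 32.0 RPKM in PDGFRA-MED cells, with a regional difference of -1.15 ± 0.13 (adjusted p = 0.0462) that held in 2 of 18 single-library fits. Myh6 and Myh7 are near-identical neighbours whose reads can be exchanged.

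Rgs5, Nkx3-2 and Ltbp2 were lower distally within CD29-HIGH cells and not called within PDGFRA-MED cells. Rgs5, a G-protein regulator of pericytes, averaged 58.4, 44.0 and 15.0 RPKM from proximal to distal in CD29-HIGH cells and 27.9, 27.9 and 33.7 RPKM in PDGFRA-MED cells. The sign of its difference between the sorts turned with it, to -1.15 ± 0.17 distally, against 1.05 proximally and 0.64 in the mid region, a regional difference of -1.99 ± 0.21 (adjusted p = 0.00543). Nkx3-2, a homeobox factor of stomach and gut mesenchyme, averaged 8.13, 5.11 and 2.68 RPKM in CD29-HIGH cells and 2.71, 2.64 and 3.62 RPKM in PDGFRA-MED cells, a regional difference of -1.51 ± 0.13 (adjusted p = 0.000781). Ltbp2, a matrix protein that binds elastic fibres, averaged 6.08, 2.22 and 0.849 RPKM in CD29-HIGH cells, and its regional difference was -2.13 ± 0.18.

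**Figure D4:**
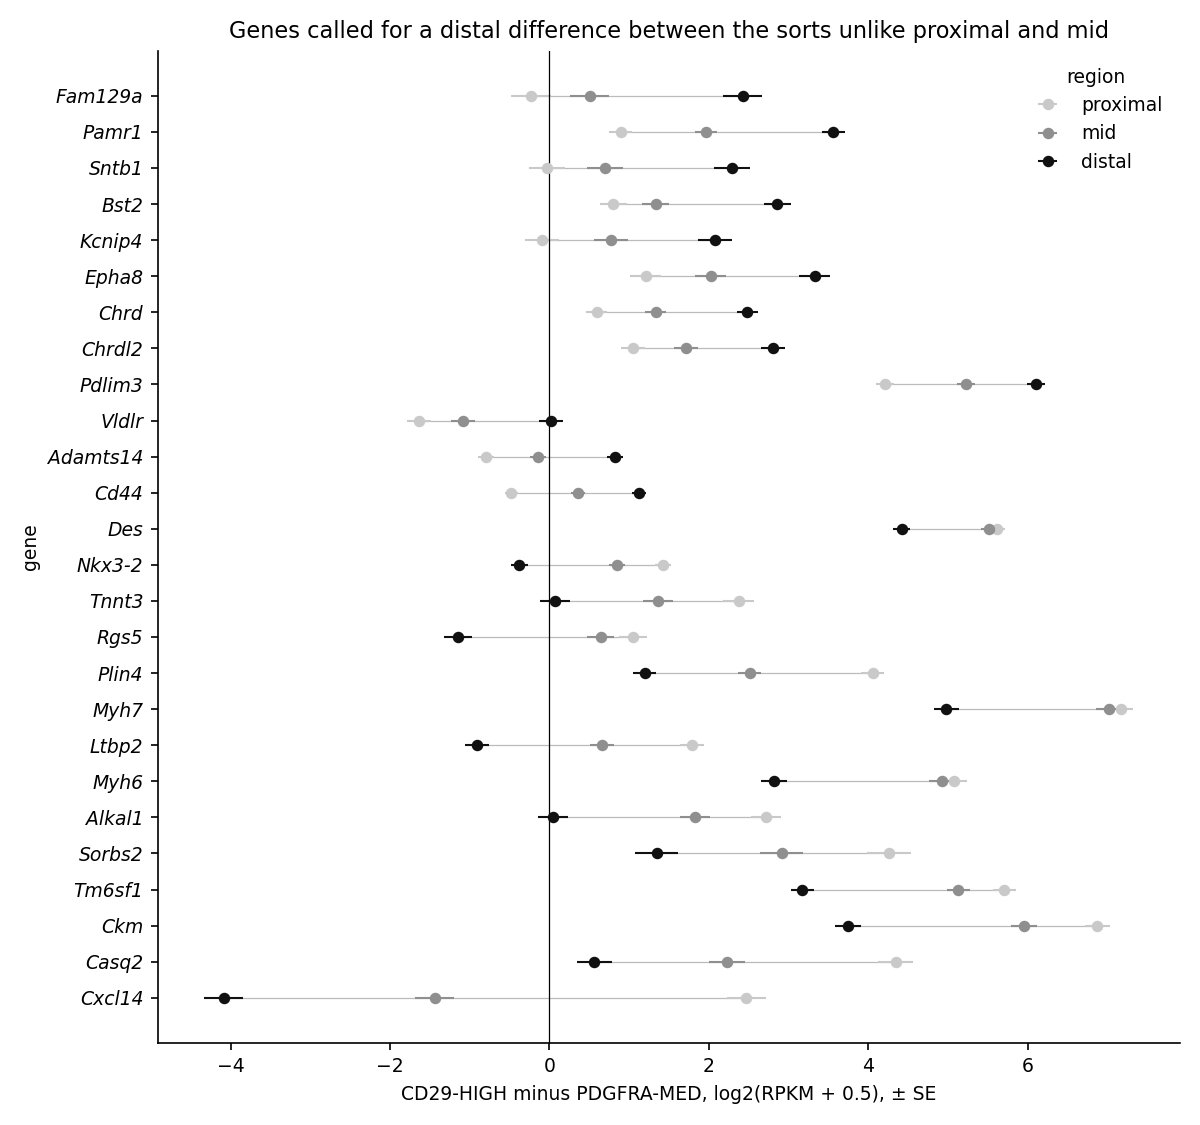
Difference between the sorts, CD29-HIGH minus PDGFRA-MED on log2(RPKM + 0.5), with its SE, in the proximal, mid and distal region for 26 genes whose distal difference was called against the mean of proximal and mid. The mid value lay between the other 2 for all 26 of them, with Cxcl14 at the bottom (-4.09 distally) and Fam129a at the top (2.42 distally).

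On the higher side, Pdlim3, Pamr1 and Vldlr were lower distally within PDGFRA-MED cells and not called within CD29-HIGH cells. Pdlim3 averaged 298, 216 and 157 RPKM from proximal to distal in CD29-HIGH cells but 15.9, 5.31 and 1.78 RPKM in PDGFRA-MED cells. Its level along the gut differed within PDGFRA-MED cells by -2.09 ± 0.10 (adjusted p = 5.08e-07), and its difference between the sorts was larger distally by 1.39 ± 0.14 (adjusted p = 0.00708). Pamr1, a secreted protein with peptidase-like domains, averaged 34.5, 56.8 and 75.2 RPKM in CD29-HIGH cells and 18.6, 14.2 and 5.95 RPKM in PDGFRA-MED cells, a regional difference of 2.13 ± 0.17 (adjusted p = 0.000326). Vldlr, a lipoprotein and reelin receptor, averaged 2.08, 2.55 and 2.64 RPKM in CD29-HIGH cells and 7.45, 6.16 and 2.65 RPKM in PDGFRA-MED cells.

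Bst2 and Epha8 were higher distally within CD29-HIGH cells, by 1.38 ± 0.15 and 1.65 ± 0.17, and not called within PDGFRA-MED cells, while Cd44 was called within neither sort (0.77 ± 0.07 in CD29-HIGH cells, adjusted p = 0.081, and -0.41 ± 0.07 in PDGFRA-MED cells). Bst2, an interferon-inducible surface protein, averaged 4.22, 4.83 and 12.8 RPKM in CD29-HIGH cells from proximal to distal and 2.19, 1.63 and 1.31 RPKM in PDGFRA-MED cells, a regional difference of 1.79 ± 0.21 (adjusted p = 0.00838). Cd44, the hyaluronan receptor, averaged 7.07, 10.6 and 15.1 RPKM in CD29-HIGH cells and 10.03, 8.23 and 6.69 RPKM in PDGFRA-MED cells, a regional difference of 1.19 ± 0.10 (adjusted p = 0.00488). Epha8, an ephrin receptor, averaged 1.4, 2.78 and 7.21 RPKM in CD29-HIGH cells and stayed at 0.266 to 0.316 RPKM in PDGFRA-MED cells.

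Along the gut within each sort, 54 genes were higher distally in CD29-HIGH cells, 0.405% of those tested, and 98 were lower, 0.735%. In PDGFRA-MED cells 20 were higher, 0.15%, and 36 lower, 0.27%. The sorts share no library, and 22 genes were called in both, 21 of them in the same direction. Hox genes, which lay out position along the body axis, were among them. Hoxc8 averaged 0.00817, 6.93 and 38.5 RPKM from proximal to distal in CD29-HIGH cells and 0.0454, 4.76 and 32.1 RPKM in PDGFRA-MED cells. Of 9 tested Hox genes of paralog groups 6 to 13, 6 were higher distally in CD29-HIGH cells and 5 in PDGFRA-MED cells, and of 12 tested of groups 1 to 5, 4 and 3 were lower.

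Between the sorts, 1 of the 9 posterior Hox genes was higher distally and 1 lower, and likewise 1 and 1 of the 12 anterior genes, beside 11.2% higher and 9.18% lower over all genes. Of the posterior genes Hoxb8 was higher in distal CD29-HIGH cells, with 7.66, 9.17 and 9.22 RPKM against 3.30, 3.01 and 2.96 RPKM in PDGFRA-MED cells (1.35 ± 0.10), and Hoxd8 was lower, with 3.55, 2.53 and 2.47 RPKM in CD29-HIGH cells against 8.95, 9.70 and 8.20 RPKM in PDGFRA-MED cells (-1.51 ± 0.18). Of the anterior genes Hoxa4 was higher by 1.37 ± 0.23, and was not called with scaling to total reads (adjusted p = 0.051). Hoxd3 was lower by -1.89 ± 0.44, with 0.140, 0.259 and 0.179 RPKM in CD29-HIGH cells against 5.30, 0.900 and 1.59 RPKM in PDGFRA-MED cells. The high value came from PDGFRA-MED replicate 1, and without it the difference was -1.46 and not called (adjusted p = 0.12).

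Fibroblast matrix genes were on the PDGFRA-MED side. Of 32 tested interstitial matrix genes, 23 were lower in distal CD29-HIGH cells and 2 higher, with a median difference of -1.52. Dcn, decorin, a proteoglycan that coats collagen fibrils, had 11.6, 9.34 and 13.9 RPKM in CD29-HIGH cells, against 212, 308 and 385 RPKM in PDGFRA-MED cells, a difference of -4.62 ± 0.30. Fbln1, the matrix glycoprotein fibulin 1, differed by -3.25 ± 0.11. Tnxb (1.48 ± 0.22) and Col8a1 (1.30 ± 0.18) were the higher genes. Dpt, dermatopontin, differed by -5.75 ± 0.25, Fndc1 by -4.73 ± 0.21, Svep1, a large adhesion protein, by -4.48 ± 0.27, Gpx3, a secreted peroxidase, by -4.36 ± 0.27, and Fap, the fibroblast activation protease, by -4.16 ± 0.20. Shisa3, which retains Wnt and FGF receptors inside the cell, differed by -5.31 ± 0.24, and Creb3l1, a transcription factor of collagen secretion, by -4.68 ± 0.23. With Cxcl13 and Col14a1, the genes Dcn, Dpt, Fndc1, Svep1, Gpx3, Fap, Shisa3 and Creb3l1 were the 10 largest falls.

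The basement membrane genes split by chain, with 9 of 23 higher and 6 lower. Lama5, a laminin chain, had 76.8, 92.9 and 78.5 RPKM in CD29-HIGH cells, against 2.60, 4.30 and 3.16 RPKM in PDGFRA-MED cells, a difference of 4.45 ± 0.12. Lama2, the chain of the muscle laminins, ran the other way, with 1.13, 1.02 and 0.966 RPKM in CD29-HIGH cells, against 16.8, 23.5 and 20.9 RPKM in PDGFRA-MED cells, a difference of -3.75 ± 0.29. Frem2 was higher by 4.33 ± 0.30 while its relative Frem1 was lower by -3.34 ± 0.18. Npnt, an integrin ligand, was higher by 3.69 ± 0.12, although its level in CD29-HIGH cells was lower distally, with 160, 66.6 and 32.2 RPKM from proximal to distal (-1.67 ± 0.11, adjusted p = 1.19e-05). Nid2, which links laminin and collagen networks, was lower by -2.70 ± 0.17.

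Integrins, the receptors of these proteins and the family of the gate marker, had 6 of 15 tested subunits higher and 4 lower. Itga3, a laminin receptor chain, had 41.8, 47.9 and 44.5 RPKM in CD29-HIGH cells, against 3.19, 0.803 and 1.74 RPKM in PDGFRA-MED cells, a difference of 4.36 ± 0.29. Itga1, a collagen receptor chain, differed by 3.0 ± 0.08 and Itga5, the fibronectin receptor chain, by 2.66 ± 0.08. All 3 pair with the CD29 chain. The lower subunits included Itga11, a collagen receptor chain of fibroblasts, at -2.20 ± 0.26, Itga8, the receptor of nephronectin, at -1.32 ± 0.18, and Itgb5, a vitronectin receptor chain, at -1.11 ± 0.08.

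Growth factors split evenly, with 10 of 29 tested genes higher and 9 lower and a median difference of 0.07. Pdgfc, a ligand of the PDGFRa receptor, had 33.6, 37.5 and 34.1 RPKM in CD29-HIGH cells, against 1.5, 1.33 and 1.73 RPKM in PDGFRA-MED cells, a difference of 4.14 ± 0.14. Nrtn, neurturin, a survival factor of enteric neurons, differed by 2.98 ± 0.17, and Ctgf, a matrix-bound growth regulator, by 3.06 ± 0.30. Among the lower genes were Igf1, insulin-like growth factor 1 (-2.44 ± 0.12), and Vegfd, a lymphatic growth factor (-1.91 ± 0.28).

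Of 21 tested guidance cues and chemokines 14 were lower and 4 higher. Cxcl13, a chemokine that attracts B cells, had 1.17, 0.732 and 0.584 RPKM in CD29-HIGH cells, against 87.7, 104 and 124 RPKM in PDGFRA-MED cells, the largest fall of all called genes at -6.33 ± 0.27 (adjusted p = 3.82e-09). Il33, an alarm cytokine, was lower by -3.36 ± 0.22. Ntn1, netrin 1, an axon guide, was higher, with 62.0, 76.7 and 64.7 RPKM in CD29-HIGH cells, against 5.92, 5.51 and 5.69 RPKM in PDGFRA-MED cells, a difference of 3.46 ± 0.08. Sema3a, which repels axons, differed by 1.71 ± 0.14 and Efnb2, an ephrin, by 1.37 ± 0.15.

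Retinoic acid, a vitamin A product that patterns the gut, is made by enzymes of the Aldh1a family. Aldh1a1 had 746, 796 and 864 RPKM in CD29-HIGH cells, against 14.0, 13.4 and 11.3 RPKM in PDGFRA-MED cells, a difference of 5.91 ± 0.25 (adjusted p = 2.86e-09), and Aldh1a2 differed by 2.31 ± 0.13. Of the 10 tested genes of the pathway 2 were higher and 3 lower, among them Dhrs3, which turns the precursor back (-2.57 ± 0.10), and Rarg, a receptor (-0.86 ± 0.10). Aldh1a1 and Aldh1a2 ran opposite ways along the gut in CD29-HIGH cells, with 251, 523 and 802 RPKM for Aldh1a1 and 150, 83.6 and 61.8 RPKM for Aldh1a2 from proximal to distal, and neither of these was called in that sort (adjusted p = 0.306 and 0.18).

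**Figure D5:**
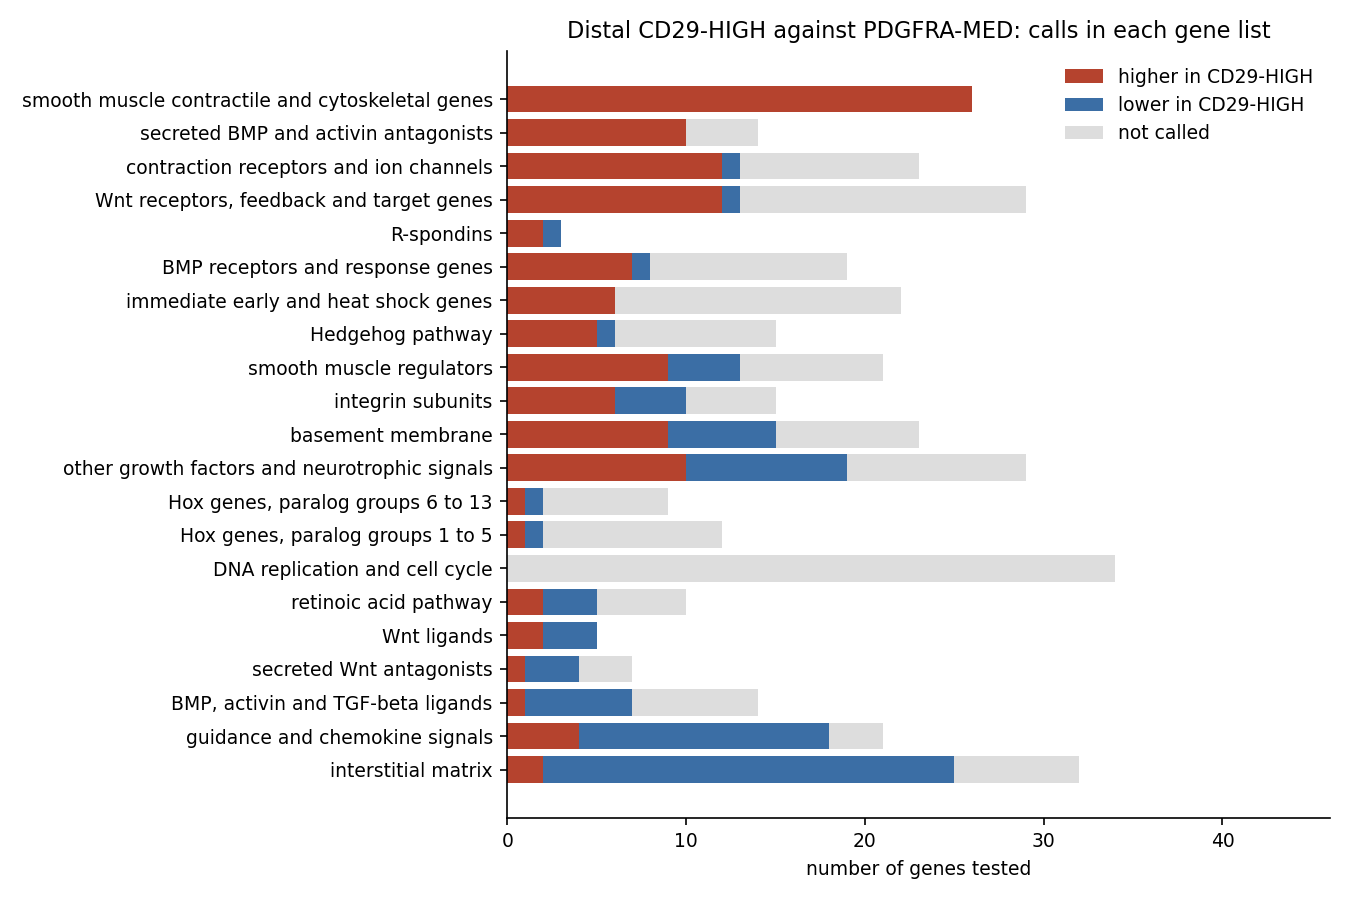
Number of tested genes in each list that were higher in distal CD29-HIGH cells, lower, or not called. All 26 contractile genes were higher, 23 of 32 interstitial matrix genes were lower, and 0 of 34 cell cycle genes were called.

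Cell cycle genes, DNA replication included, gave no calls between the sorts. By limma's treat test 0 of 34 were called, 0 at an unadjusted p under 0.05 and 0 by limma-voom, and their differences ran from -0.60 to 0.47 with a median of 0.04. With scaling to total reads 2 were lower. Of 22 immediate early and heat shock genes, which tissue dissociation can raise, 6 were higher in CD29-HIGH cells and 0 lower, with 0 lower at an unadjusted p under 0.05 or by limma-voom and 2 higher with scaling to total reads. Nr4a1, an immediate early nuclear receptor, had 141, 124 and 94.5 RPKM in CD29-HIGH cells, against 32.1, 31.8 and 24.9 RPKM in PDGFRA-MED cells, a difference of 1.99 ± 0.23, and Ier3 differed by 1.93 ± 0.18. Hspa1b, a heat shock protein whose reads can be exchanged with its twin Hspa1a, had 1843, 1591 and 1031 RPKM in CD29-HIGH cells and 1174, 761 and 459 RPKM in PDGFRA-MED cells. Its groups overlapped, its difference of 0.96 ± 0.11 was called with the replicate block, and the part of such a response in the other differences was not tested.

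Markers of other cells were read over whole lists. The 9 smooth muscle markers summed to 15090 to 18430 RPKM in CD29-HIGH cells and 297 to 333 RPKM in PDGFRA-MED cells, and the 11 fibroblast markers to 736 to 900 RPKM in CD29-HIGH cells and 3181 to 4447 RPKM in PDGFRA-MED cells, where all 10 tested fibroblast markers were lower in CD29-HIGH cells. Neither sort was thus at 0 for the summed markers of the other. Col1a1 made up most of the fibroblast sum, with 639, 812 and 680 RPKM in CD29-HIGH cells and 2045, 2518 and 2757 RPKM in PDGFRA-MED cells. In CD29-HIGH cells Dcn had 9.34 to 13.9 RPKM and Dpt 0.0917 to 0.579 RPKM, so the sum says little of the other fibroblast markers. The 16 epithelial markers summed to 6.70 to 9.22 RPKM in CD29-HIGH cells and 9.30 to 20.8 RPKM in PDGFRA-MED cells, with Fabp1 at 0 in all CD29-HIGH libraries, and 9 endothelial markers to 3.74 to 4.09 RPKM and 3.56 to 4.44 RPKM in the same order. The 9 blood markers in the table, mostly globins, summed to 88.3 to 221 RPKM in CD29-HIGH cells and 195 to 480 RPKM in PDGFRA-MED cells. By limma's treat test 0 of 12 tested epithelial and 0 of 7 tested blood markers were called, 0 at an unadjusted p under 0.05, and limma-voom called 1 epithelial and 0 blood markers. Between the regions these lists did move. The epithelial sum had a median of 38.0 RPKM proximally, 22.7 in the mid region and 8.08 distally in CD29-HIGH cells and of 212, 73.4 and 15.0 RPKM in PDGFRA-MED cells, and Fabp1 and Apoa4 were called lower distally in both sorts. The part of epithelial RNA in the regional results was not tested.

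Counts for enteric neurons and glia moved with single libraries. The list summed to 72.6 to 83.0 RPKM in CD29-HIGH cells, mostly from Ednrb, and 90.8 to 255 RPKM in PDGFRA-MED cells. Of 16 tested genes 8 were lower in CD29-HIGH cells, 5 without PDGFRA-MED replicate 1, and also 5 without CD29-HIGH replicate 1, and 1 without all libraries of replicate number 1 or of number 3. Stmn2, a neuronal regulator of microtubules, had 0.972, 1.10 and 0.796 RPKM in CD29-HIGH cells, against 24.5, 8.08 and 11.5 RPKM in PDGFRA-MED cells, a difference of -3.24 ± 0.58 that was -2.83 (adjusted p = 0.016) without that library. PDGFRA-MED replicate 1 was the highest of the 6 libraries, and the groups did not overlap. Prph, a neuronal intermediate filament, differed by -3.29 ± 0.65, and by -2.79 (adjusted p = 0.027) without it.

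The remaining lists mixed both directions. Of 5 genes of interstitial cells of Cajal, the pacemakers of gut muscle, Ano1, a chloride channel (3.41 ± 0.21), Gja1, a gap junction protein (1.15 ± 0.16), and Kcnk3 (1.07 ± 0.07) were higher in CD29-HIGH cells, and Kit, the receptor that defines these cells (-1.42 ± 0.25), and Etv1 (-1.0 ± 0.10) were lower. Of 8 tested pericyte markers Mcam, an adhesion molecule of muscle and mural cells, was higher (3.35 ± 0.17) and Pdgfrb (-2.29 ± 0.17) and Rgs5 were lower. Of 8 tested mesothelial markers Rspo1 and Aldh1a2 were higher and Wt1 (-2.37 ± 0.26) and Nkain4 (-1.92 ± 0.14) lower, with a median difference of -1.0. The list summed to 70.0 to 88.9 RPKM in CD29-HIGH cells and 30.0 to 53.6 RPKM in PDGFRA-MED cells. Most of the CD29-HIGH sum was Aldh1a2, with 52.2, 66.1 and 67.0 RPKM, against 13.9, 10.7 and 11.5 RPKM in PDGFRA-MED cells. Among 6 tested genes of subepithelial PDGFRA-HIGH cells, another sort of the series, Lama5 was higher and Foxl1 and Bmp2 were lower. Of 4 tested endothelial genes Esam was higher (1.61 ± 0.18) and Tek lower (-1.52 ± 0.15).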

How the data were processed

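Sorted cells of the 18 CD29-HIGH and PDGFRA-MED libraries were profiled by stranded total RNA-seq. The authors aligned reads to mm10 with Rsubread, counted RefSeq genes with featureCounts, filtered low genes, scaled library sizes and deposited RPKM computed with edgeR. All values corresponded to whole reads within 0.01, and 199 genes had no length from which reads could be recovered. Genes with an RPKM of at least 1 in 3 libraries were fitted on log2(RPKM + 0.5) with limma 3.58.1 in R 4.3.3, over 6 groups with the replicate number as a block, as in the model of the study. The treat test used a minimum change of 0.5, a variance trend and robust estimation, with Benjamini-Hochberg adjustment over all 13334 genes at 0.05, and it was tested on simulated data. Replicates differed by more than sampling noise (chi-square per degree of freedom 11.2 to 56.0).

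The members and gene lists were chosen with earlier results of these data known. Named genes were the 10 largest distal differences in each direction, the 12 largest regional ones, the antagonists, R-spondins and markers, and the 3 largest called members of each other list in each direction. Further genes, such as Axin2, Gli1, Inhba, Hoxc8, Fabp1, Apoa4 and the 4 genes with printed promoters, were chosen after their values were seen. No symbol was found for 305 genes, which were not named, and some genes of the lists are not reported here. Alternatives were other pseudocounts, filters and scalings, no block, no minimum change, limma-voom on recovered reads and libraries left out.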

Additional observations from a re-analysis of the deposited data

Results flagged for a closer look

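For 26 named genes the difference between CD29-HIGH and PDGFRA-MED cells was itself different in the distal intestine, by limma's treat test of the distal difference minus the mean of the proximal and mid differences on log2(RPKM + 0.5). Of these, 17 were called in each of the 18 fits that left out 1 library and 9 in some of them. The 9 were Des and Kcnip4 (2 fits each), Vldlr (3), Chrdl2 (4), Sntb1 (5), Sorbs2 (6), Epha8 (7), and Fam129a and Tnnt3 (15 each).

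On the lower side, the chemokine Cxcl14 stood at -4.60. Casq2, a calcium store protein, was at -2.72, Ckm, a creatine kinase, at -2.67, Myh6 at -2.18, Myh7 at -2.12, Tnnt3 at -1.80 and Des at -1.15. Sorbs2 and Tm6sf1 were both at -2.24. Alkal1, a ligand of ALK receptors, was at -2.23, Ltbp2 at -2.14, Plin4, a lipid droplet coat protein, at -2.09, Rgs5 at -1.99 and Nkx3-2 at -1.51. Limma-voom on recovered reads did not call Casq2, Ckm, Myh6, Myh7, Tm6sf1 and Sorbs2. It could not test Alkal1, Plin4 or, on the higher side, Chrdl2, for which no reads were recovered.

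On the higher side, the antagonists Chrd and Chrdl2 were at 1.52 and 1.42. Fam129a was at 2.29, Pamr1 at 2.13, Sntb1, a partner of dystrophin, at 1.95, Bst2 at 1.79, Kcnip4 at 1.74 and Epha8 at 1.72. Pdlim3 was at 1.39, Vldlr at 1.38, Adamts14, a procollagen protease, at 1.29 and Cd44 at 1.19.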

How the results depend on the processing

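The distal counts of 1499 genes higher and 1224 lower were 4541 and 3555 with no minimum change, and 1949 were lower with scaling to total reads, an alternative chosen after seeing the data, as was leaving out all libraries of a number. The regional counts of 13 and 26 were 6 and 17 with no replicate block, 282 and 472 with no minimum change, 35 and 69 against the proximal difference alone and 0 and 5 against the mid difference alone (limma, 36 and 59 at an unadjusted p under 0.05, and 0 and 2 by limma-voom). Within CD29-HIGH cells no minimum change gave 1860 and 1833. Within PDGFRA-MED cells it gave 557 and 775, limma-voom gave 33 higher, and fitting the compared libraries alone gave 21 lower.

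With libraries left out, the regional counts ran from 0 to 13 higher and 0 to 28 lower, those within CD29-HIGH cells from 23 to 65 and 49 to 104, and those within PDGFRA-MED cells from 10 to 22 and 10 to 52. Single libraries that moved the regional count of higher genes by over 1.5 times were CD29-HIGH_Prox 1 and 2 (8 each), CD29-HIGH_Mid 3 (7), CD29-HIGH_Dist 1 and 2 (6 each) and 3 (8), PDGFRA-MED_Mid 3 (8) and PDGFRA-MED_Dist 1 (7) and 2 (8). For lower genes they were CD29-HIGH_Dist 1 (16) and 2 (13) and PDGFRA-MED_Dist 2 (13). Leaving out PDGFRA-MED_Dist 1 or 2 gave 21 or 16 genes lower within PDGFRA-MED cells, against 36. The causes were not tested.

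Without the replicate block, 1391 genes were higher and 1101 lower distally. Deviations of same-numbered libraries correlated over 0.1 in 32 of 45 pairs (mean 0.239, distal pairs -0.0256 to 0.427), so the pairing rests on the model of the study. Genes whose distal difference was near 0 changed sign. Vldlr was -0.0028 by limma-voom and -0.22 with scaling to total reads, and ran from -0.11 to 0.14 with libraries left out. With total reads Tnnt3 was -0.15 and Dand5 -0.21, and their ranges with libraries left out were -0.094 to 0.29 and -0.13 to 0.092, while Alkal1 ran from -0.063 to 0.20. None of these was called. Of the distal alternatives of named genes 4604 of 4736 kept direction and call, and of the regional ones 654 of 866. At this depth, genes under an RPKM of 1 rest on few reads.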
